A study of Mus musculus with 384 samples.

Results

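Among dopamine (DA) neurons sorted from the midbrain of DAT-IRES-Cre;Ai9 mice, the cells with little or no Aldh1a7 were split by Otx2. The Otx2-positive and Otx2-negative cells of the same mouse were compared across the transcriptome. The cells were chosen by read counts. A cell entered when it had at least 500000 reads on genes, Th at 1000 CPM (reads scaled to the library size) or more, and fewer than 10 Aldh1a7 reads; it was called Otx2-positive at 10 or more Otx2 reads and Otx2-negative below that. Of 384 cells in the series, 209 had the depth, 181 of these had the Th level, and 107 of these were Aldh1a7-negative: 36 were Otx2-positive and 71 Otx2-negative. Aldh1a7 was at 0 reads in 17 of the 36 and in 46 of the 71 cells, and the others held up to 9 reads. The comparison used the 6 mice with at least 3 cells on each side (mice 1, 2, 3, 5, 7 and 8), which held 33 Otx2-positive and 61 Otx2-negative cells. Each mouse gave between 3 and 8 Otx2-positive and between 8 and 12 Otx2-negative cells; mouse 4 (2 and 2 cells) and mouse 6 (1 and 8 cells) did not enter.

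All mice were untreated C57BL6/J animals carrying DAT-IRES-Cre, in which Cre is expressed from the dopamine transporter gene, and the Ai9 reporter, which turns on tdTomato in cells that have expressed Cre at any time. By the sample labels they were 24 to 36 days old, 5 were male and 3 female (the series text gives 6 and 2), and mouse 1 was the only female among the 6 compared. The dissected block of midbrain included the hypothalamus, so that tdTomato-positive cells of that region could enter the sort. The sorted cells of each mouse were captured singly on a separate Fluidigm C1 chip, so mouse and chip cannot be told apart. Mice 1, 2 and 3 were sequenced in lane 1 and mice 5, 7 and 8 in lane 2. Both classes were taken from every chip and lane.

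Otx2 is a homeodomain transcription factor that patterns the early midbrain and that, in the adult, persists in DA neurons of the ventral and medial ventral tegmental area (VTA) and is largely absent from the substantia nigra pars compacta (SNc). VTA neurons of this ventromedial kind are known for Calb1, Cck, Grp, Neurod6 and the vesicular glutamate transporter gene Slc17a6. SNc neurons and their developmental lineage are known for Sox6, Ndnf and Aldh1a7. Removing the Aldh1a7-positive cells therefore leaves a mixture in which Otx2 could still divide VTA-type cells from others.

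Most Otx2-negative cells held no Otx2 read, but the read counts left no wide gap at the threshold. The 36 Otx2-positive cells held between 10 and 283 Otx2 reads, with a median of 79, and 63 of the 71 Otx2-negative cells held 0. The 8 other negative cells held between 1 and 7 reads. The values nearest the threshold were 10, 10, 13, 13 and 14 reads inside it and 7, 6, 5, 4 and 2 reads outside it. Over the 6 mice Otx2 had a lowest, median and highest summed level of 29.7, 90.8 and 172 CPM in the positive class and of 0, 0.698 and 1.00 CPM in the negative class. These values chose the classes and are given as a description.

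**Figure D1:**
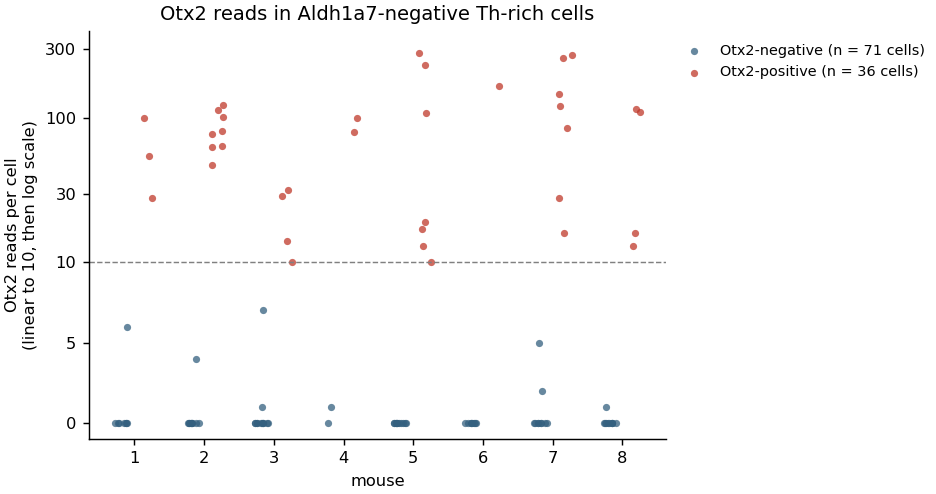
Otx2 reads in each of the 107 Aldh1a7-negative Th-rich cells (y axis, linear up to 10 reads and logarithmic above) by mouse (x axis, 8 mice), with Otx2-positive cells in red, Otx2-negative cells in blue and the threshold of 10 reads as a dashed line. Most negative cells (63 of 71) lie at 0, and the positive cells reach 283 reads.

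Both classes carried markers of DA neurons, though not every marker in every cell. Slc6a3 (the dopamine transporter), Slc18a2 (the vesicular monoamine transporter) and Ddc (aromatic amino acid decarboxylase) had at least 10 reads in 36 of 36 and 71 of 71 cells. Nr4a2 reached 10 reads in 36 positive and 67 negative cells, En1 in 36 and 64, Foxa1 in 9 and 29, Lmx1b in 7 and 15, and Pitx3 in 6 and 9. The markers of other cell types were measured cell by cell. The summed level of 8 astrocyte markers ran from 158 to 1950 CPM (median 631) in Otx2-positive cells and from 1.896 to 1432 CPM (median 219) in Otx2-negative cells. Most of that sum was Slc1a2. Of the other 7 markers, Gfap and Aqp4 were at 0 in every positive cell, Glul reached 10 reads in 23 positive and 38 negative cells, and each of the rest in at most 1 positive and 3 negative cells; 2 cells of each class held at least 3 of the markers. The summed level of 10 oligodendrocyte markers ran from 0 to 2982 CPM (median 42.4) against 0 to 549 CPM (median 10.7), with Mog, Pdgfra and Cspg4 at 0 in both classes. Microglia and endothelium markers reached at most 2.56 and 11.9 CPM. The summed level of 18 markers of other aminergic and hypothalamic neurons ran from 1.24 to 173 CPM (median 27.6) in Otx2-positive and from 0 to 2085 CPM (median 11.1) in Otx2-negative cells, and this last group is taken up with Lhx1os.

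Depth did not separate the classes beyond the spread between mice. Otx2-positive cells had 509588 to 1211394 reads (median 807937) and Otx2-negative cells 500672 to 1380765 (median 747281). The within-mouse difference of the class medians was 23703 ± 84455 reads (SD, n = 6 mice; higher in 4; p = 0.469, exact sign-flip permutation test, two-sided). The number of detected genes differed by 261 ± 626 per cell (higher in 4 of 6 mice; p = 0.344, the same exact test). With 6 mice the smallest p that this test allows is 0.03125. Reads were not marked by molecular identifiers, so intervals on shares and on ratios of reads below cover counting error only.

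The question of the main comparison was which genes besides Otx2 differ between Otx2-positive and Otx2-negative cells of the same mice. Reads were summed per mouse and class, and 11505 genes passed the filter on low counts. By edgeR's quasi-likelihood test, 0 genes were higher in Otx2-positive cells at an adjusted p under 0.05 (0% of genes tested) and 1 gene was lower (0.00869%), the long non-coding RNA gene Lhx1os. At an unadjusted p under 0.05 there were 218 higher (1.89%) and 269 lower (2.34%). DESeq2 called 23 higher and 27 lower, among them the 8 genes named below on each side, and the fit with the mouse as a block 0 in either direction. A further description is the number of genes with the same direction in all 6 mice: 219 were higher in Otx2-positive cells in every mouse (1.9%) and 377 lower (3.28%), and in 52 (0.452%) the values of the 6 mice did not overlap between classes. The median log2 fold change over all genes tested was 0.01. The 8 genes named below on each side were chosen for 1 direction in all 6 mice, so that direction adds no evidence for them. In what follows a fold change is Otx2-positive over Otx2-negative, CPM values are sums over the cells of a mouse scaled by the library sizes of the fit, and errors on CPM are SD over 6 mice.

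**Figure D2:**
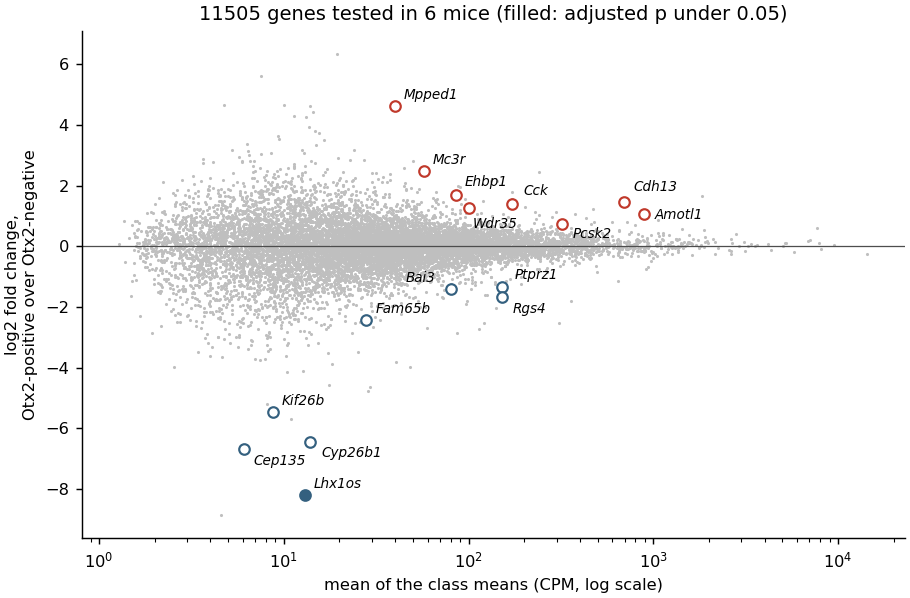
Log2 fold change (y axis, Otx2-positive over Otx2-negative) against the mean of the class means (x axis, CPM, log scale) for the 11505 genes tested, as grey points. The 8 genes named in each direction are circled, in red where higher and in blue where lower in Otx2-positive cells; Lhx1os, the filled point at a log2 fold change of -8.20, is the gene with an adjusted p under 0.05.

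Lhx1os fell almost to 0 in Otx2-positive cells. The gene lies on chromosome 11 (84525660-84535831, GRCm38.p6) on the strand opposite to Lhx1, a LIM homeodomain factor gene whose annotated start lies 125 bases away (Lhx1, 84517975-84525534). Its lowest, median and highest level over the mice was 0, 0 and 0.171 CPM in Otx2-positive cells and 6.17, 19.1 and 64.4 CPM in Otx2-negative cells, so the classes did not overlap. The log2 fold change was -8.20 ± 1.14 (SE; adjusted p = 0.0287, lower in 6 of 6 mice). In reads, the positive class held 2 in all and the negative class 1166, a ratio of 319 (exact counting interval 88.1 to 2637, which takes reads as independent molecules and leaves out the spread between cells and mice). No Otx2-positive cell of 36 had 10 reads, against 18 of 71 Otx2-negative cells. With the mouse as a block, which these classes share, the adjusted p was 0.0808, so the call did not hold in that fit. It also did not hold without mouse 1, 2, 5, 7 or 8 (adjusted p between 0.0560 and 0.127), and with Otx2 split at 1 read the log2 fold change was -1.80 (adjusted p = 0.9996). Lhx1 itself did not pass the filter on low counts; it had 10 or more reads in 1 positive and 7 negative cells.

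The window around the start of Lhx1os is shown because both genes begin in it (RefSeq, GRCm38.p6, chr11:84525410-84525709, plus strand, 250 bases before to 50 after the start); the capitals mark the 125 bases between the 2 annotated starts, of which 66.4% are G or C.
Lhx1os: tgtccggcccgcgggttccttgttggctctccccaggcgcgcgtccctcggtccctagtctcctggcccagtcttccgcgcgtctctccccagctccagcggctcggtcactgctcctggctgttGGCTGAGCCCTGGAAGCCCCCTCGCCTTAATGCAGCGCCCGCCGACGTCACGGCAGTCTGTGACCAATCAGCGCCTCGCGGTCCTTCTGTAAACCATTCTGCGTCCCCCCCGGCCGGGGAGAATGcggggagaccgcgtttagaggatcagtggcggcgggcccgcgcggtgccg
The sequencing kit did not mark strand, so reads over the first bases of either gene cannot be assigned by direction, although the counted exons extend away from each other.

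A small set of Otx2-negative cells held most of the Lhx1os reads. In 9 of the 71 Otx2-negative cells, and in 0 of the 36 Otx2-positive cells, at least 3 markers of other aminergic and hypothalamic neurons had 10 or more reads. Six6 and Prlr had them in 9 of the 9 cells, Six3 in 6 and Dlx1 in 4, and Gad1, the GABA synthesis gene, in 9. Prlr was not particular to these cells, with 10 reads in 22 of the 71 Otx2-negative and 23 of the 36 Otx2-positive cells. The 9 cells came from 5 mice, 4 of them from mouse 1. They had Slc6a3, Slc18a2 and Ddc in 9 of 9 cells and, of the factors of midbrain DA neurons, 10 reads of Nr4a2 and En1 in 5 each, of Foxa1 and Foxa2 in 2 each, and of Pitx3 and Lmx1b in 0. Over the 71 Otx2-negative cells Nr4a2 had them in 67, En1 in 64, Foxa1 in 29, Foxa2 in 31, Pitx3 in 9 and Lmx1b in 15. Their mean Th level was 3918 CPM, against 6118 CPM in the other Otx2-negative cells. Of the 1166 Lhx1os reads in the negative class, 805 (69.0%) came from the 9 cells, and 8 of the 18 Lhx1os-positive cells were among them. Without the 9 cells Lhx1os averaged 9.72 ± 10.0 CPM in Otx2-negative cells over the mice, was at 0 in mouse 8 and at 0.129 CPM in mouse 2, and no longer passed the filter on low counts, and 0 genes passed the test in either direction. The call of Lhx1os was thus not obtained without these cells; for the other genes the share of reads they held, and for some the value of the fit without them, is given.

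The other 7 genes named on the lower side did not pass edgeR's test in the main fit, and all 7 passed DESeq2's. Among the alternatives of edgeR's test, Cep135 passed against cells at 0 Otx2 reads (adjusted p = 0.0384) and after thinning to 500000 reads (0.0374). Cyp26b1 passed after thinning (0.0423) and without mouse 2 (0.0376), and neither gene passed in the others. Cep135, which encodes a centriole protein, had 0, 0 and 0.290 CPM (lowest, median, highest) in Otx2-positive cells and 3.34, 11.7 and 26.3 CPM in Otx2-negative cells, without overlap (log2 fold change -6.68 ± 1.04, adjusted p = 0.0598). The class sums were 3 and 627 reads, a ratio of 114 (38.9 to 556 by the same counting interval). Cyp26b1, a retinoic acid-degrading enzyme gene, had 0, 0 and 1.31 CPM against 10.7, 24.1 and 45.2 CPM (-6.45 ± 1.13, adjusted p = 0.101), and 10 reads in 0 of 36 positive against 19 of 71 negative cells. None of the Cep135 reads and 3.89% of the Cyp26b1 reads of the negative class came from the 9 cells. Kif26b, a kinesin-family gene with 8.00% of its negative-class reads in the 9 cells, had 0, 0 and 1.85 CPM against 5.68, 13.4 and 32.8 CPM (-5.47 ± 1.24, adjusted p = 0.457), with 0 positive and 19 negative cells at 10 reads.

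Ptprz1, a receptor tyrosine phosphatase gene, had a narrower difference at a higher level: 64.7, 85.6 and 111 CPM against 118, 223 and 302 CPM, again without overlap (-1.33 ± 0.24, adjusted p = 0.101). Rgs4, a regulator of G-protein signalling, had 36.2, 61.7 and 149 CPM against 131, 230.4 and 362 CPM (-1.67 ± 0.37, adjusted p = 0.389). With the mouse as a block in edgeR's test, the adjusted p of Rgs4 was 0.0808, which does not pass. Its class values overlapped between mice, but each mouse was lower in its positive class. Of its negative-class reads 23.4% lay in the 9 cells, and without them the negative cells of mouse 1 were at 11.7 CPM, below the 86.7 CPM of its positive cells. Fam65b (current symbol Ripor2) had 1.20, 8.57 and 16.1 CPM against 36.8, 45.5 and 59.2 CPM, and Bai3 (current symbol Adgrb3), an adhesion G-protein-coupled receptor gene, 24.6, 41.3 and 68.8 CPM against 59.5, 108 and 181 CPM; for both the adjusted p was 0.469. Leaving out the 9 cells left Cep135, Cyp26b1 and Ptprz1 at an adjusted p of 0.0798 each, which does not pass.

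On the higher side the gene with the smallest p was Cdh13, which encodes T-cadherin, an adhesion protein anchored in the membrane. It had 902, 1005 and 1142 CPM in Otx2-positive cells and 135, 387 and 539 CPM in Otx2-negative cells, and the classes did not overlap. The means were 1021 ± 86.1 and 368 ± 144 CPM (log2 fold change 1.47 ± 0.27, adjusted p = 0.101, higher in 6 of 6 mice). Nearly every positive cell (35 of 36) and most negative cells (63 of 71) had 10 reads, so the classes differed in level rather than in presence. The gene passed edgeR's test with Th raised to 2000 CPM (adjusted p = 0.0348), and in the other alternatives of that test the adjusted p lay between 0.0542 and 0.9998, with 0.259 for the mouse block.

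Mpped1, a metallophosphoesterase-domain gene, differed in presence. It had 9.26, 95.5 and 128 CPM in Otx2-positive and 0.656, 1.496 and 8.15 CPM in Otx2-negative cells (log2 fold change 4.63 ± 0.84, adjusted p = 0.101), and at least 10 reads in 23 of 36 against 6 of 71 cells. Mice 3 and 8 were the low ones of the positive class, at 19.6 and 9.26 CPM, and still lay above every negative value. Mc3r, a melanocortin receptor gene, had 50.1, 81.4 and 210 CPM against 6.43, 13.8 and 32.3 CPM (2.48 ± 0.51, adjusted p = 0.295), with mouse 1 highest in the positive class. Its cells with 10 reads numbered 22 of 36 and 15 of 71.

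The remaining named genes on the higher side were found in both classes. Amotl1, an angiomotin-family gene, had 1211 ± 221 against 578 ± 179 CPM (1.07 ± 0.23, adjusted p = 0.389), and its classes did not overlap. Ehbp1, a gene of endocytic trafficking, had 131 ± 69.6 against 40.2 ± 18.9 CPM (1.70 ± 0.40). Wdr35, a gene of ciliary transport, had 142 ± 37.3 against 58.9 ± 24.2 CPM (1.27 ± 0.31). Pcsk2, a prohormone convertase gene, had 402 ± 60.2 against 239 ± 38.7 CPM (0.75 ± 0.18), and Cck, which encodes cholecystokinin, 251 ± 68.1 against 95.0 ± 46.5 CPM (1.40 ± 0.35). For these last 4 genes the adjusted p was 0.469. Their direction in 6 of 6 mice was a condition for naming them.

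**Figure D3:**
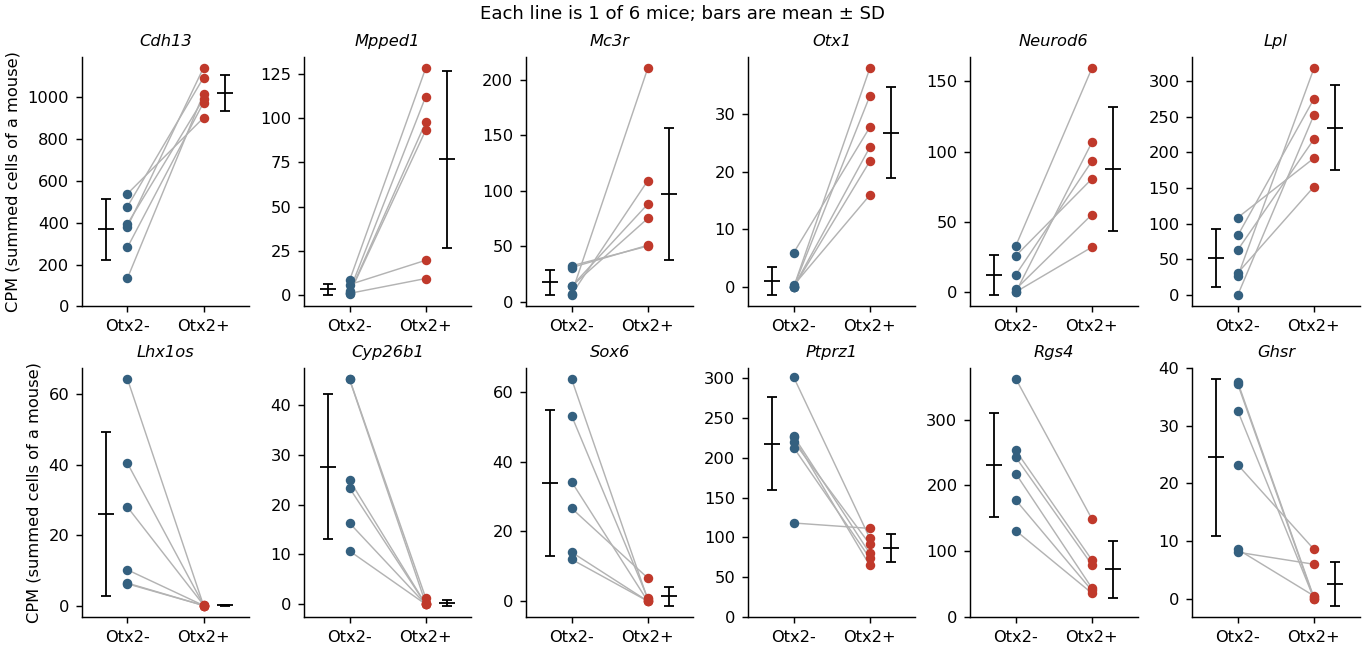
Summed level (y axis, CPM) in Otx2-negative (left, blue) and Otx2-positive cells (right, red) of 6 mice for 12 genes, each panel with its own scale; a line joins the classes of a mouse and black bars are mean ± SD. Cdh13, Mpped1, Mc3r, Otx1 and Lpl in the upper row and Lhx1os, Cyp26b1, Sox6 and Ptprz1 in the lower row show no overlap between classes.

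Otx1, the paralog of Otx2, was nearly absent from Otx2-negative cells. Its lowest, median and highest level was 15.9, 25.9 and 37.8 CPM in Otx2-positive cells and 0, 0 and 5.94 CPM in Otx2-negative cells; in 4 of the 6 mice the negative cells held no Otx1 read. It had 10 or more reads in 17 of 36 positive cells and 1 of 71 negative cells, and 0 reads in 13 positive and 68 negative cells. The log2 fold change was 4.64 ± 1.39 and the adjusted p 0.801, with an unadjusted p of 0.00428. It passed the test when Otx2-positive cells were compared with cells at 0 Otx2 reads, when the split was set at 1 read, or without mouse 3, the one mouse whose negative cells held more than 1 CPM. The genes are related in sequence, and reads on more than one gene were excluded before counting. Of the 10 cells with the most Otx2 (114 to 283 reads), 7 had fewer than 10 Otx1 reads and 5 had 0.

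Among 27 genes of midbrain DA identity factors, 22 passed the filter; 3 were higher and 2 lower at an unadjusted p under 0.05 (1.89% and 2.34% over all genes), and 0 passed edgeR's adjusted test; DESeq2 called 1, Otx1 (adjusted p = 0.0179). Their median log2 fold change was 0.06, beside 0.01 over all genes. Besides Otx1, Tcf4, a basic helix-loop-helix factor gene, was at 131 ± 71.2 against 50.2 ± 26.5 CPM (1.38 ± 0.45, higher in 6 of 6 mice). Pbx3, a TALE homeodomain factor gene, was at 99.3 ± 70.9 against 221 ± 61.2 CPM (-1.16 ± 0.37, lower in 5 of 6). Foxa1, a forkhead factor needed by DA neurons, was at 14.1 ± 10.9 against 31.1 ± 24.9 CPM (-1.14 ± 0.82), lower in 6 of 6 mice. Nr4a2, which maintains the DA phenotype, was at 450 ± 72.2 against 352 ± 89.6 CPM (0.35 ± 0.20).

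The ventromedial VTA markers had the largest list median among lists with at least 8 genes tested. Of 24 genes listed 21 passed the filter, with a median log2 fold change of 1.00; 8 were higher and 1 lower at an unadjusted p under 0.05, and 7 were higher and 1 lower in all 6 mice (over all genes 1.89% and 2.34%, and 1.9% and 3.28%), but none passed edgeR's adjusted test; DESeq2 called 1, Cck (adjusted p = 0.0244). The list was drawn up with earlier results of these cells known, and the counts describe these mice. Neurod6, a basic helix-loop-helix factor gene, had 32.2, 86.9 and 159 CPM in Otx2-positive and 0.115, 7.43 and 33.0 CPM in Otx2-negative cells (2.82 ± 0.95, adjusted p = 0.908), higher in each mouse with overlap between mice. Lpl, lipoprotein lipase, had 152, 235 and 318 CPM against 0.230, 47.3 and 109 CPM without overlap (2.16 ± 0.70, adjusted p = 0.877). Adcyap1, which encodes the neuropeptide PACAP, had 103, 128 and 218 CPM against 0.350, 31.6 and 94.9 CPM, also without overlap (1.99 ± 0.71, adjusted p = 0.993).

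Cnr1, the cannabinoid CB1 receptor gene, varied widely between mice at 406 ± 339 against 74.2 ± 59.6 CPM (2.45 ± 0.72, adjusted p = 0.770), higher in 6 of 6. Aldh1a1, a retinaldehyde dehydrogenase gene and a paralog of Aldh1a7 on the same chromosome (19), so that reads alike in both are uncertain, had 1927, 2634 and 4228 CPM against 19.4, 860 and 1891 CPM without overlap (1.68 ± 0.63, adjusted p = 0.999). Gpr83, a G-protein-coupled receptor gene, was at 314 ± 145 against 144 ± 117 CPM (1.13 ± 0.70), higher in 6 of 6. Grp, gastrin-releasing peptide, was at 215 ± 143 against 48.2 ± 47.4 CPM (2.16 ± 0.92) and higher in 5 of 6 mice; in mouse 7 the order was 90.6 and 125 CPM. Calb1, calbindin, had 1225 ± 326 against 905 ± 259 CPM (0.44 ± 0.25), and was thus abundant on both sides. On the same list 4 of the 21 genes tested had a negative log2 fold change: Ctxn3 (-1.62, lower in 4 mice), Pou3f1 (-1.44, lower in 5), Etv1 (-0.09, lower in 4) and Lypd1, which is also known from the SNc and was placed on the list with VTA genes, at 1.58 ± 1.95 against 9.55 ± 6.18 CPM (-2.56 ± 0.95) and lower in 6 of 6 mice.

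The share of cells with at least 10 reads was compared for 14 genes by an exact sign-flip permutation test over the 6 mice. In 6 genes the difference had the same direction in every mouse, and each had the smallest p the test allows, 0.03125, which is 0.0729 after adjustment over the 14. Lpl had 10 reads in 32 of 36 Otx2-positive cells (88.9%, exact binomial interval 73.9 to 96.9%) and 17 of 71 Otx2-negative cells (23.9%, 14.6 to 35.5%), a mean within-mouse difference of 63.6 ± 21.5 percentage points. Neurod6 had it in 23 of 36 (63.9%) and 8 of 71 cells (11.3%), a difference of 58.2 ± 13.5 points. Slc17a6 had it in 32 of 36 (88.9%) and 36 of 71 (50.7%), a difference of 39.5 ± 14.9 points, Grp in 22 of 36 (61.1%) and 22 of 71 (31.0%), and Cck in 33 of 36 (91.7%) and 41 of 71 (57.7%). Sox6 was the gene in the other direction, in 1 of 36 (2.78%) and 21 of 71 cells (29.6%), a difference of -27.4 ± 17.3 points. Of these 21 cells 5 were among the 9 with the hypothalamic marker set, and without those the negative cells of mouse 1 held 0 Sox6 reads, as did its positive cells, so that the direction would no longer hold in 6 of 6 mice.

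The other 8 genes had the same direction in 5 mice or fewer. Tacr3, a neurokinin receptor gene, had 10 reads in 27 of 36 against 24 of 71 cells and Adcyap1 in 23 of 36 against 17 of 71, each in 5 of 6 mice (p = 0.0625, adjusted p = 0.0972, the same exact test). Gad1 had it in 0 of 36 cells, which allows a share of up to 9.74% by the exact interval, and in 10 of 71, 9 of these being the cells with the hypothalamic marker set. Aldh1a1 was found in 32 of 36 and 46 of 71 cells (adjusted p = 0.175) and Calb1 in 36 of 36 and 63 of 71 (adjusted p = 0.318). For Lmx1a, a midbrain DA identity factor, the shares were 63.9% and 64.8%, with a mean difference of 2.29 ± 27.5 points. Vip (1 of 36 and 5 of 71) and Nts (1 of 36 and 0 of 71) were too rare to compare.

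**Figure D4:**
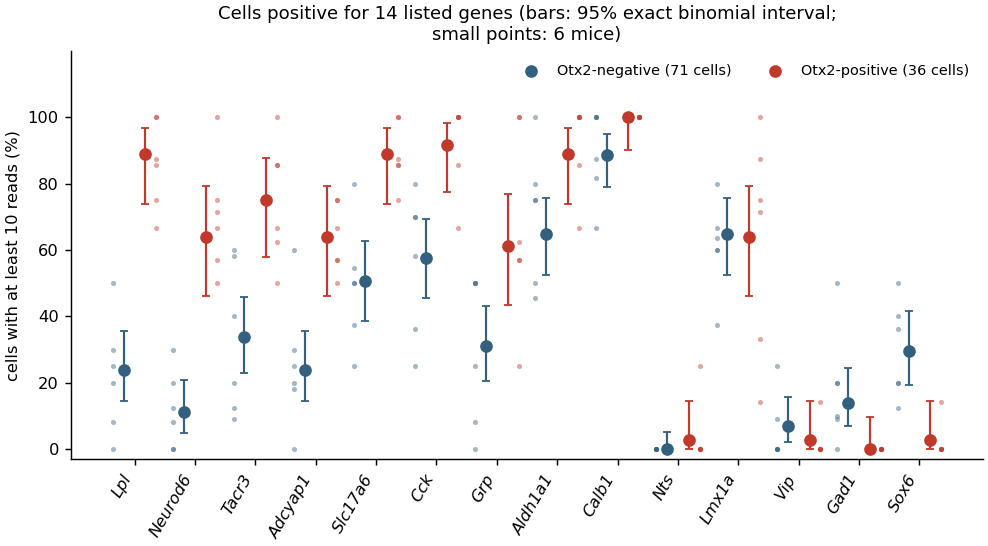
Share of cells with at least 10 reads (y axis, percent) for 14 listed genes (x axis), in Otx2-negative (blue, 71 cells) and Otx2-positive cells (red, 36 cells); bars are 95% exact binomial intervals and small points are the 6 mice compared. Lpl and Neurod6 have the widest gaps upward and Sox6 the widest downward.

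Neurod6 and Grp overlapped within the Otx2-positive class. Both genes reached 10 reads in 20 of the 36 cells, Neurod6 alone in 3, Grp alone in 2 and neither in 11. Among the 71 Otx2-negative cells the same counts were 7, 1, 15 and 48, so most held neither gene, and of the 22 with Grp 15 lacked Neurod6. Otx1 and Neurod6 were found together in only part of the cells. Otx1 reached 10 reads in 17 of the 36 Otx2-positive cells. Of the 23 Neurod6-positive cells among these 36, 8 had Otx1 and 15 did not. Otx2-positive cells were thus not uniform for these genes.

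Of the 23 nigral-type markers 21 passed the filter, with a median log2 fold change of -0.15; at an unadjusted p under 0.05 there were 0 higher and 3 lower, and 0 were higher and 4 lower in all 6 mice, beside 1.89% and 2.34%, and 1.9% and 3.28%, over all genes. Sox6, a factor of the SNc lineage, had 0, 0.257 and 6.65 CPM in Otx2-positive and 12.0, 30.4 and 63.7 CPM in Otx2-negative cells (-4.58 ± 1.15, adjusted p = 0.469), without overlap. Of its negative-class reads 39.7% lay in the 9 cells with the hypothalamic marker set; without them Sox6 was at 0 in mouse 1 and at 1.43 CPM in mouse 7, under the 6.65 CPM of that mouse's positive cells. Ndnf, a secreted neuron-derived factor gene, was at 11.3 ± 15.6 against 48.9 ± 38.2 CPM (-2.12 ± 1.08) and Epha4, an ephrin receptor gene, at 16.5 ± 15.5 against 63.7 ± 46.1 CPM (-1.94 ± 1.00). Cplx1, complexin, was at 404 ± 322 against 884 ± 639 CPM (-1.13 ± 0.49), and like Ndnf and Epha4 was lower in 6 of 6 mice. Igf1, insulin-like growth factor, was at 35.4 ± 26.6 against 206 ± 206 CPM (-2.54 ± 0.87), lower in 5 of 6. Members with a positive log2 fold change included Igfbp2 (2.64, higher in 5 of 6 mice), Vcan (2.06, higher in 3), Lama5 (1.59, higher in 4) and Anxa1 (0.74, higher in 4). None of them was at an unadjusted p under 0.05. With the mouse as a block Vcan was at -1.04, and the other 3 stayed positive.

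Many midbrain DA neurons also release glutamate or GABA. Slc17a6 had 125, 240.4 and 318 CPM against 48.7, 140 and 392.2 CPM (0.47 ± 0.39), so the levels overlapped between mice while its share of cells had 1 direction in all 6. Gad2, a GABA synthesis gene, had 3.08, 9.08 and 368 CPM in Otx2-positive and 2.21, 478 and 1614 CPM in Otx2-negative cells (-2.52 ± 1.28, adjusted p = 0.999), lower in 4 of 6 mice and higher in mice 3 and 7. It reached 10 reads in 6 of 36 and 25 of 71 cells. Unlike Gad1, of which 99.7% of negative-class reads were in the 9 cells, Gad2 had 6.08% of them there. Of the 11 genes on the list 8 passed the filter. Aldh1a1, on the higher side, was the only gene at an unadjusted p under 0.05 (1.89% higher and 2.34% lower over all genes). Of the 71 negative cells 39 had Sox6 or Gad2 at 10 reads and 32 had neither; among the 36 positive cells these counts were 7 and 29.

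The neuropeptide list had a median log2 fold change of 0.64 over 12 of 24 genes that passed the filter. Cck, Grp and Adcyap1, described above, were its 3 genes higher at an unadjusted p under 0.05, and Cartpt was the 1 lower (1.89% and 2.34% over all genes). The receptor list had 28 of 34 genes tested and a median of 0.17. Of these, 7 were higher and 6 lower at an unadjusted p under 0.05, beside the same shares over all genes. In every mouse 5 were higher and 3 lower (1.9% and 3.28% over all genes). Gfra1, the receptor for glial cell line-derived neurotrophic factor, was at 567.8 ± 177 against 295 ± 99.0 CPM (0.95 ± 0.26, adjusted p = 0.662) and Oprk1, the kappa opioid receptor gene, at 342 ± 101 against 215 ± 60.3 CPM (0.67 ± 0.25, adjusted p = 0.999), each higher in 6 of 6. Ghsr, the ghrelin receptor gene, was at 2.52 ± 3.76 against 24.5 ± 13.6 CPM (-3.26 ± 1.19, adjusted p = 0.999) and reached 10 reads in 3 of 36 and 22 of 71 cells. Grik1, a kainate receptor subunit gene, was at 5.05 ± 5.46 against 30.6 ± 21.5 CPM (-2.58 ± 0.94), and like Ghsr was lower in 6 of 6.

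In the axon guidance and adhesion list 28 of 34 genes passed the filter, with a median of -0.15; 3 were higher at an unadjusted p under 0.05 and 0 lower (1.89% and 2.34% over all genes), and Unc5c and Epha4 were lower in all 6 mice. The 3 were Cdh13 and the neuropilins, the receptors that bind semaphorins. Nrp1 was at 76.6 ± 59.0 against 12.8 ± 15.0 CPM (2.58 ± 1.08, higher in 6 of 6 mice) and Nrp2 at 40.0 ± 33.0 against 5.53 ± 7.03 CPM (2.85 ± 0.92, higher in 5 of 6). Nrp1 reached 10 reads in 17 of 36 and 11 of 71 cells and Nrp2 in 21 of 36 and 9 of 71. The adjusted p was 0.999 and 0.877.

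Channel genes had a median of 0.22 over 20 of 23 genes, with 2 higher and 3 lower at an unadjusted p under 0.05 (1.89% and 2.34% over all genes). Kcnn2, a small-conductance calcium-activated potassium channel gene, had 9.93, 15.4 and 25.2 CPM against 2.38, 3.87 and 6.58 CPM without overlap (1.99 ± 0.61, adjusted p = 0.847). Kcnma1, the large-conductance channel gene of the same kind, was at 192 ± 65.5 against 332 ± 80.5 CPM (-0.79 ± 0.26, adjusted p = 0.877) and Scn8a, a sodium channel gene, at 53.8 ± 25.1 against 124 ± 23.9 CPM (-1.21 ± 0.40, adjusted p = 0.898), each lower in 6 of 6. For the D2 autoreceptor and GIRK list the median over 12 of 14 genes was -0.28. Rgs4, on the lower side, was its 1 gene at an unadjusted p under 0.05, beside the same shares over all genes. Drd2, the autoreceptor gene, was at 78.6 ± 16.4 against 111 ± 51.8 CPM (-0.50 ± 0.34). Kcnj6, a GIRK subunit gene, was near the limit of detection at 3.80 ± 4.75 against 4.68 ± 4.71 CPM.

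For dopamine synthesis and handling no difference was detected. Of 17 genes listed, 13 besides Th passed the filter, with a median of -0.05. At an unadjusted p under 0.05 there were 0 genes in either direction (1.89% higher and 2.34% lower over all genes). Slc6a3 was at 2496 ± 960 against 2752 ± 849 CPM (-0.14 ± 0.27), Slc18a2 at 1733 ± 470 against 1798 ± 498 CPM (-0.05 ± 0.23) and Ddc at 2077 ± 524 against 1819 ± 647 CPM (0.19 ± 0.24). These differences were smaller than their errors, which does not show that the levels are equal, and the signs of Slc6a3 and Slc18a2 turned under other cell thresholds. Th, which the rule used, had 5294, 8791 and 14040 CPM against 2979, 6071 and 8468 CPM. Among 19 Parkinson disease and vulnerability genes the median was -0.10. Sncg, gamma-synuclein, was at 159 ± 206 against 560 ± 431 CPM (-1.82 ± 0.95, adjusted p = 0.999, lower in 6 of 6 mice). Immediate early and dissociation-response genes had a median of 0.09 over 12 of 23 genes. At an unadjusted p under 0.05 there was 1, Npas4, on the higher side (1.89% higher and 2.34% lower over all genes).

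**Figure D5:**
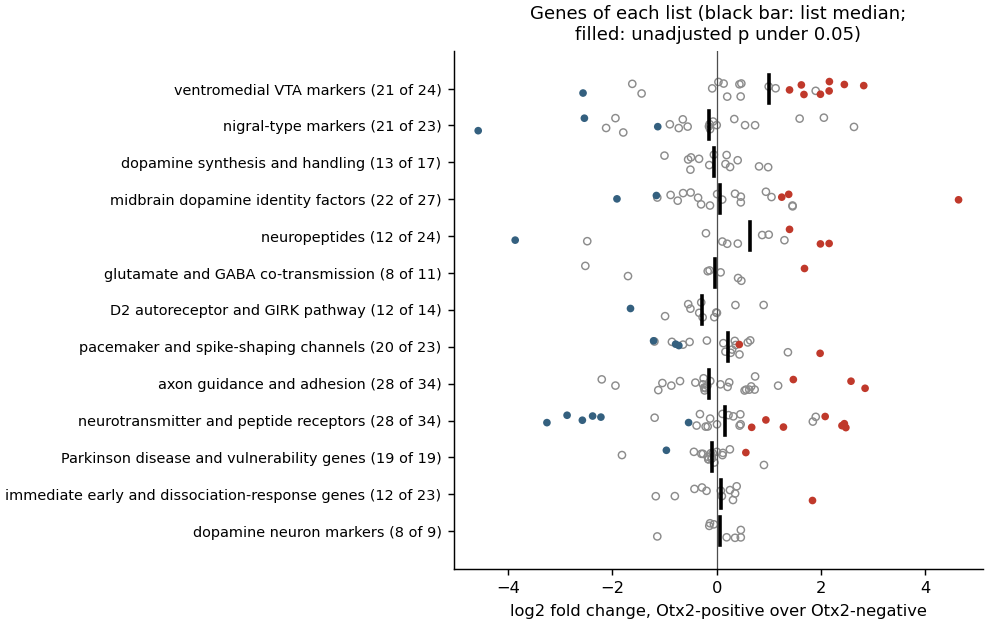
Log2 fold change (x axis, Otx2-positive over Otx2-negative) of the tested genes of 13 lists (y axis, with the number tested of the number listed); filled points have an unadjusted p under 0.05 and black bars are list medians. The ventromedial VTA markers have a median of 1.00 and the nigral-type markers one of -0.15, and no point in this plot has an adjusted p under 0.05 by edgeR; DESeq2 called Cdh13, Mc3r, Sox6, Rgs4, Otx1, Cck and Kcnn2 among them.

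Of the marker lists of other cell types few genes passed the filter: 2 of 8 astrocyte, 3 of 10 oligodendrocyte, 0 of 10 microglia and endothelium and 3 of 18 other neuron markers, with medians of 0.99, 2.36 and -1.01 for the lists with any. Of 9 dopamine neuron markers 8 besides Th passed, with a median of 0.07 and 0 genes at an unadjusted p under 0.05 (1.89% higher and 2.34% lower over all genes). Slc1a2, the glutamate transporter gene of astrocytes, was at 659 ± 206 against 278 ± 131 CPM (1.24 ± 0.31, adjusted p = 0.469, higher in 6 of 6 mice), with 10 reads in 36 of 36 and 56 of 71 cells. DESeq2 called it (adjusted p = 0.0179). In the 6 mice the positive and negative cells held 0 and 1 reads of Gfap, 0 and 27 of Aqp4, 28 and 1 of Slc1a3, 34 and 7 of Gja1, 17 and 90 of Aldh1l1, and 3 and 110 of Sox9. At an unadjusted p under 0.05 there were also Cnp, an oligodendrocyte gene, on the higher side, with 10 reads in 13 of 36 and 13 of 71 cells, and Ghrh of the other neuron markers on the lower side (-2.45). Leaving out the 3 positive and 3 negative cells with at least 3 markers of 1 glial or vascular list left 0 calls in either direction, with Lhx1os at a log2 fold change of -8.07 and an adjusted p of 0.0561. Leaving out the 20 positive and 21 negative cells with at least 3 such markers of any list left 3 mice and 0 calls; there Pcsk2 was at -0.29, Ptprz1 at -0.66 and Cdh13 at 1.18.

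The promoters of the genes were searched for the letters TAATCC and, on the other strand, GGATTA, the 6-base motif recognised by OTX-type homeodomains. The search covered the RefSeq windows of 250 bases before to 50 after each annotated start (GRCm38.p6). Of all 32851 windows 7.06% held the motif. Of the 16 named genes 15 had a window, 18 windows in all, and 0 of these held it. Over a wider set of 56 genes, 43 had a window and 2 of 63 windows held it (3.17%). Those 2 windows are shown, with the motif in capitals, because they are the matches in that set. They belong to a gene higher and a gene lower in Otx2-positive cells of all 6 mice. They are 1 of several annotated starts of Cnr1 (chr4:33926130-33926429, plus strand) and of Sox6 (chr7:115801560-115801859, minus strand).
Cnr1: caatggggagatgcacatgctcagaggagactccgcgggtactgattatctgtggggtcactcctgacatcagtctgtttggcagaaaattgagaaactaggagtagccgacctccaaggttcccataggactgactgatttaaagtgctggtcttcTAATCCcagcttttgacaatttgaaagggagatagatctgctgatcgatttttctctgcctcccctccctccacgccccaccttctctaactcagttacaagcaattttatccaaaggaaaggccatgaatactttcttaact
Sox6: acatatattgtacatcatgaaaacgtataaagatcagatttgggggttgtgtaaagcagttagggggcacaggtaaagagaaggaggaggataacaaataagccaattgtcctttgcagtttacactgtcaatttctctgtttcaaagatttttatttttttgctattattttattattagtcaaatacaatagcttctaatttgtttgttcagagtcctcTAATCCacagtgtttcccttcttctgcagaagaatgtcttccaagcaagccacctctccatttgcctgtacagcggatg
A match of letters is a description of the window and not a binding site.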

How the data were processed

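The data were read counts per gene in single cells captured by Fluidigm C1 from 8 mice. Per the labels and the study's methods, the authors aligned reads with TopHat2 2.1.1 to GRCm38, trimmed them with Trimmomatic 0.3.2 and deposited raw counts from featureCounts 1.5.0-p3 with reads on more than one gene excluded. Rows of spike-ins and transgenes (0.00457% of reads) were left out. The authors' filter on alignment rate and dropout was not applied. Members and gene lists were chosen with earlier results of these data known. Counts were summed per mouse and class and tested with edgeR 4.0.16 (quasi-likelihood, TMM, filterByExpr, Benjamini-Hochberg, threshold 0.05), without a mouse block; DESeq2 1.42.0 and a mouse block were alternatives. Both classes come from the same mice: deviations of a mouse's classes correlated at 0.0737 to 0.211. Genes named were those past the threshold with at least 10 CPM in the higher class and 1 direction in 6 mice, filled to 8 a direction by smallest p. Fits were tested on simulated data. Alternatives were other tools, filters and cell thresholds, each mouse or lane left out and, added after seeing the data, cells with markers of other types left out. Gene, cell and protocol annotation tables were not used for values. Values of some listed genes are not reported here.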

Additional observations from a re-analysis of the deposited data

Results flagged for a closer look

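In 4 genes 1 of the 6 mice stood apart from the others of its class by Dixon's criterion, out of 32 gene and class groups examined; chance alone flags about 1 in 20 groups. Mc3r was at 210 CPM in the Otx2-positive cells of mouse 1, and Wdr35 at 213 CPM in the same cells, which were 3 in number. Cyp26b1 was at 1.31 CPM in the Otx2-positive cells of mouse 2 and Kif26b at 1.85 CPM in those of mouse 7, where most other mice were at 0. Without the mouse that stood apart, the log2 fold change was 1.935 for Mc3r, 1.07 for Wdr35, -8.46 for Cyp26b1 and -7.77 for Kif26b. In cells outside the comparison, 11 of the 74 Aldh1a7-positive Th-rich cells had at least 10 Otx2 reads.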

How the results depend on the processing

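A set of 56 genes was followed through the 24 alternatives, and 49 of them kept their direction wherever they had a value. Some genes given above are outside this set, among them Vcan, which was at 2.06 in the main fit and at -1.04 with the mouse as a block. The counts of genes past the threshold, 0 higher and 1 lower, depended on the tool and the cells. DESeq2 gave 23 and 27. Higher genes numbered 1 with Otx2 split at 1 read (Otx1), 1 against cells at 0 reads (Otx1) and 2 with Th at 2000 CPM (Cdh13 and Mpped1), and 0 to 1 with 1 mouse left out. Lower genes numbered 2 against cells at 0 Otx2 reads and 3 after thinning to 500000 reads, and 0 with Otx2 split at 1 read, 50 reads or 20 CPM, Aldh1a7 at 0, at least 5 cells per side, and in lane 1 or lane 2 alone. With 1 mouse left out they numbered 0 to 3. The replicate block (mouse) gave 0 lower genes, with Lhx1os at an adjusted p of 0.0808, and changed no other call. With Otx2 split at 1 read Lhx1os was at a log2 fold change of -1.80 (adjusted p = 0.9996), Cep135 at -2.68, Kif26b at -2.62 and Rgs4 at -0.73; with Otx2 at 50 reads, which left 3 mice, Mpped1 was at 1.41 and Mc3r at 0.95, and after thinning Mpped1 was at 2.32. Lhx1os was lost without mouse 1 (adjusted p = 0.124), 2 (0.0964), 5 (0.127), 7 (0.0788) or 8 (0.0560). Alternatives added after seeing the data gave 0 lower genes without cells holding 3 glial or vascular markers, of any such list or of 1, and 0 without those holding 3 other neuron markers. Leaving out 1 mouse moved the difference in reads per cell from 4740 to 48921 and in detected genes from 90.5 to 426. Signs turned, none past the threshold, as follows. With Otx2 at 50 reads the log2 fold change was -0.30 for Calb1, 0.061 for Slc6a3 and 0.072 for Slc18a2. With Otx2 at 20 CPM it was -0.047, 0.17 and 0.074 for the same genes. With Aldh1a7 at 0 it was 0.077 for Slc18a2 and -0.00029 for Ddc, with at least 5 cells per side 0.12 for Slc18a2, in lane 1 0.062 for Slc6a3, in lane 2 -0.061 for Ddc, after thinning 0.13 for Slc6a3, and with Otx2 at 1 read 0.28 for Kcnj6. Without cells with 3 glial or vascular markers, which left 3 mice, it was -0.29 for Pcsk2, -0.29 for Calb1, 0.47 for Slc6a3, 0.12 for Slc18a2 and -0.17 for Nr4a2. With 1 mouse left out Slc18a2 ran from -0.14 to 0.031, turning without mouse 3 (0.031) and mouse 8 (0.0011). The share difference turned to 0.866 points for Vip and -0.777 for Lmx1a when a positive cell needed 50 reads, to -4.78 for Lmx1a after thinning, to 1.04 for Vip without mouse 1 (lowest -6.82, without mouse 7), and to -2.75 and -1.25 for Lmx1a without mouse 2 and mouse 8 (highest 12.6, without mouse 5). The cause of these shifts was not tested.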

Other observations

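The Aldh1a7-positive Th-rich cells, which the comparison did not use, gave reference values over the 5 of the 6 mice that held any, with up to 28 cells a mouse. Sox6 reached 10 reads in 51 of the 74 such cells of the series and Epha4 in 64. Cyp26b1 was at 3.23 ± 3.85 CPM (SD, n = 5 mice) with 10 reads in 9 of the 74 cells, and Cep135 at 1.93 ± 1.505 CPM with 10 reads in 5. Lhx1os reached 10 reads in 4 of the 74 cells, Otx1 in 10, Mpped1 in 17 and Gad2 in 2. Calb1 was at 360 ± 278 CPM with 37 of 74 cells positive, and Aldh1a1 at 6321 ± 1826 CPM with 73 of 74. Cdh13 was at 639 ± 220.1 CPM. These are values without a test.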
